A study of Mus musculus with 4 samples.

Results

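The gene family described here comprised 10 genes, Slc2a1, Hk1, Hk2, Pfkp, Aldoa, Gapdh, Pgk1, Pgam1, Pkm and Ldha, out of 32285 genes counted. They were chosen by name as members of a pathway, the uptake of glucose and its conversion to lactate. The rule uses no measured value, but it was set with earlier results of these data known. They were followed in single-cell libraries from the aorta-gonad-mesonephros region (AGM) of C57BL/6J mouse embryos at stage E11.5, the site where blood stem cells form. Freshly isolated CD31-positive cells had been sorted by TMRM, a dye that accumulates in mitochondria with their membrane potential, into a low (MMPlow) and a high (MMPhigh) fraction, each with 2 libraries and no other treatment. The series relates stem cell function to mitochondrial activity at the level of transcripts. The labels do not state whether the 2 libraries of a gate came from separate embryos, so p-values measure only the spread between these libraries.

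Glycolysis breaks glucose down to pyruvate in the cytosol, yielding ATP and NADH without oxygen. Cells that pass pyruvate on to lactate regenerate NAD+, whereas oxidising it in mitochondria helps to build the membrane potential that TMRM reports. Stem cells of the adult bone marrow are known for relying on glycolysis, and several genes of the pathway are targets of hypoxia-inducible factors, which bind short sites with the core ACGTG or GCGTG.

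In the mm10 build (GRCm38), the 10 genes lie on 8 chromosomes and differ in length in the GENCODE M21 annotation. Gapdh spans 4.75 kb (chr6:125161715-125166467), Aldoa 5.52 kb (chr7:126795234-126800751) and Pgam1 6.74 kb (chr19:41911923-41918660). Ldha spans 14.2 kb (chr7:46841475-46855627), Pgk1 16.6 kb (chrX:106187100-106203699), Pkm 23.0 kb (chr9:59656368-59679375) and Slc2a1 29.3 kb (chr4:119108711-119137983). Hk2 spans 49.4 kb (chr6:82725025-82774454), Pfkp 69.0 kb (chr13:6579768-6648777) and Hk1 111 kb (chr10:62268855-62379908).

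RefSeq (GRCm38.p6) promoter windows, running from 250 bases before to 50 bases after a start site, matched all 10 genes with 15 windows. The cores ACGTG and GCGTG, searched on both strands, occurred in at least 1 window of each of the 10 genes and in 12 of the 15 windows. Over all 32851 windows of the same length, 43.8% held either core, 19.6% held ACGTG, 32.4% held GCGTG and 7.15% held CACGTG, a palindrome that contains ACGTG on both strands. The windows of 2 genes that were higher in MMPhigh progenitor-like cells (Gapdh and Pgam1), of the lactate-forming enzyme (Ldha, the more upstream of its 2 windows) and of the glucose transporter that was lower (Slc2a1) are shown with both cores, on either strand, in capitals.
Slc2a1 (chr4:119108495-119108794, + strand): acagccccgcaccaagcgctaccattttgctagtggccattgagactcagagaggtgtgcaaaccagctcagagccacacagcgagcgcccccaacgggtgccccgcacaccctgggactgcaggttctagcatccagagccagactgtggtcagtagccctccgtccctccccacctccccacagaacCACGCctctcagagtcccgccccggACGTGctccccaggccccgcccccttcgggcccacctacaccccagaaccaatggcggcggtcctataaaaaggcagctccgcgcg
Gapdh (chr6:125165724-125166023, - strand): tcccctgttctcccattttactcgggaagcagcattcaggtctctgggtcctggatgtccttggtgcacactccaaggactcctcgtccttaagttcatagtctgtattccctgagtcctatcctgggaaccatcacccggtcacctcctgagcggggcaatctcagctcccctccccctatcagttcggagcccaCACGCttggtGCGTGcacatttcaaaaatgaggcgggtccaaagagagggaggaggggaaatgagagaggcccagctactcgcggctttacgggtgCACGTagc
Pgam1 (chr19:41911621-41911920, + strand): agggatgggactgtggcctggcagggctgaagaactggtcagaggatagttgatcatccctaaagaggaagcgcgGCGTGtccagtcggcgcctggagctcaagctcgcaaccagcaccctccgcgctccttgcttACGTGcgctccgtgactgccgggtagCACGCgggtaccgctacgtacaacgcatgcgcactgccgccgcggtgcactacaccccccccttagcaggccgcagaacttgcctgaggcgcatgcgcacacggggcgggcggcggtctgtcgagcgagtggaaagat
Ldha (chr7:46845554-46845853, + strand): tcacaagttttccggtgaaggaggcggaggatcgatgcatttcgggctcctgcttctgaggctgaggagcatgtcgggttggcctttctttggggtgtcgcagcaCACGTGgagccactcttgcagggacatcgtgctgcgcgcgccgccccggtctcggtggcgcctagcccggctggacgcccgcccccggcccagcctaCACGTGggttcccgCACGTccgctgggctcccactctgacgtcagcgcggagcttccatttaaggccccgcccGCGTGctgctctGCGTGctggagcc
The Ldha window held 2 CACGTG palindromes, and none of the other 3 windows shown held any. Genes that differed in opposite directions between the gates both carried the cores, and a match describes letters, not binding.

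The libraries differed in depth. They held 51800709 to 120168395 UMIs (unique molecular identifiers, counts of captured transcripts), and 3408 to 18442 cells were retained per library, 42066 in all. The median retained cell held 3087 UMIs in MMPlow 1, 3641 in MMPlow 2, 3685 in MMPhigh 1 and 23619.5 in MMPhigh 2. Any pair of libraries shared 14 to 369 barcode sequences. Cells were grouped into 11 classes by marker genes, each called "-like" because it rests on rebuilt clusters; 5 of 31 clusters had no name. Their cells made up 46.6% of MMPhigh 1 against 11.9%, 15.03% and 13.3% of MMPlow 1, MMPlow 2 and MMPhigh 2, and 1669 MMPhigh 1 cells lay in a single one led by Crabp1. These cells are part of the sums over all retained cells, where 7 members passed with them, against 53.7% of all genes, and 7 without them, against 55.5%. The gates differed in makeup: endothelial-like cells numbered 7718 and 8750 in the MMPlow libraries but 17 and 16 in the MMPhigh libraries, although all cells were labelled CD31-positive. The 12 endothelial markers summed to 3182 and 3116 CPM (UMIs per 1000000 UMIs of the sum) in MMPlow and to 129.8 and 109.5 CPM in MMPhigh. Levels below are CPM of summed UMIs, and fold changes are log2 of MMPhigh over MMPlow with standard errors (SE). Tests are edgeR quasi-likelihood F-tests, two-sided, with Benjamini-Hochberg adjustment over all genes tested and a threshold of 0.05. In summed cells, a change in the share of a cell type and a change of RNA within cells cannot be told apart.

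Over all retained cells, of the 10 members 7 passed the test: 4 rose (Gapdh, Aldoa, Pgam1 and Pkm) and 3 fell (Slc2a1, Pfkp and Hk1). Hk2, Pgk1 and Ldha did not pass. Of all 20416 genes tested, 53.7% passed in this comparison, 27.2% higher and 26.5% lower, a background against which a single member's passing says little. With cells of at least 5000 UMIs and 2000 genes 4 members passed, against 48.2% of all genes, and without MMPlow 1 there were 4, against 36% of all genes.

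Slc2a1 encodes GLUT1, the facilitative glucose transporter of the plasma membrane. Its level was 99.8 and 99.9 CPM in the MMPlow libraries and 29.0 and 29.8 CPM in the MMPhigh libraries. Both MMPhigh libraries lay far below both MMPlow libraries, and the log2 fold change was -1.73 (SE 0.08, edgeR adjusted p = 1.23e-06). Sums matched for class took, for each of 9 classes, the same number of cells from every library, from 20 epithelial or mesonephric-like to 876 macrophage-like cells, and no endothelial-like cells. In these sums the levels were 55.4 and 48.1 CPM in MMPlow and 26.3 and 29.5 CPM in MMPhigh. The gates still did not overlap, with a log2 fold change of -0.83 (SE 0.11, edgeR adjusted p = 0.00128).

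The hexokinases phosphorylate glucose and so trap it in the cell. Hk1, the isozyme of most tissues, stood at 69.3 and 67.5 CPM in MMPlow and at 49.7 and 53.7 CPM in MMPhigh, with no overlap. Its log2 fold change was -0.37 (SE 0.08, edgeR adjusted p = 0.00528). Hk2, the inducible isozyme, overlapped between the gates, at 46.9 and 37.0 CPM in MMPlow and 42.8 and 53.6 CPM in MMPhigh, and did not pass (log2 0.24, SE 0.14, edgeR adjusted p = 0.182). Pfkp, the platelet-type phosphofructokinase of the committed step, fell from 27.8 and 26.2 CPM to 17.5 and 18.5 CPM. Its log2 fold change was -0.55 (SE 0.09, edgeR adjusted p = 0.00107).

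Aldolase A cleaves the phosphorylated hexose into trioses. Aldoa stood at 342 and 371 CPM in MMPlow and at 443 and 498 CPM in MMPhigh (log2 0.43, SE 0.11, edgeR adjusted p = 0.0113). Gapdh, which oxidises the triose and forms NADH, had 649 and 748 CPM in MMPlow against 1333 and 1453 CPM in MMPhigh. Its log2 fold change was 1.03 (SE 0.13, edgeR adjusted p = 3.00e-04). Gapdh is often taken as a constant reference gene, and here the fitted level was 2.04-fold higher in MMPhigh.

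Pgk1 makes ATP from the oxidised triose. Its levels were 299 and 340.0 CPM in MMPlow and 361 and 377 CPM in MMPhigh, which did not overlap but did not pass (log2 0.24, SE 0.11, edgeR adjusted p = 0.0966). Pgam1, which shifts the phosphate within phosphoglycerate, rose from 273 and 303 CPM to 367 and 375 CPM (log2 0.40, SE 0.10, edgeR adjusted p = 0.0131). Pkm, the pyruvate kinase of the last ATP-yielding step, rose from 525 and 503 CPM to 609.8 and 631 CPM (log2 0.30, SE 0.10, edgeR adjusted p = 0.0373). With cells of at least 5000 UMIs and 2000 genes, Pgam1 (log2 -0.0010) and Pkm (-0.0076) no longer passed and their direction was lost, and Aldoa (0.07) did not pass either. Ldha, which turns pyruvate into lactate, overlapped, with 566 and 639 CPM in MMPlow and 622 and 754 CPM in MMPhigh (log2 0.22, SE 0.13, edgeR adjusted p = 0.184).

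**Figure D1:**
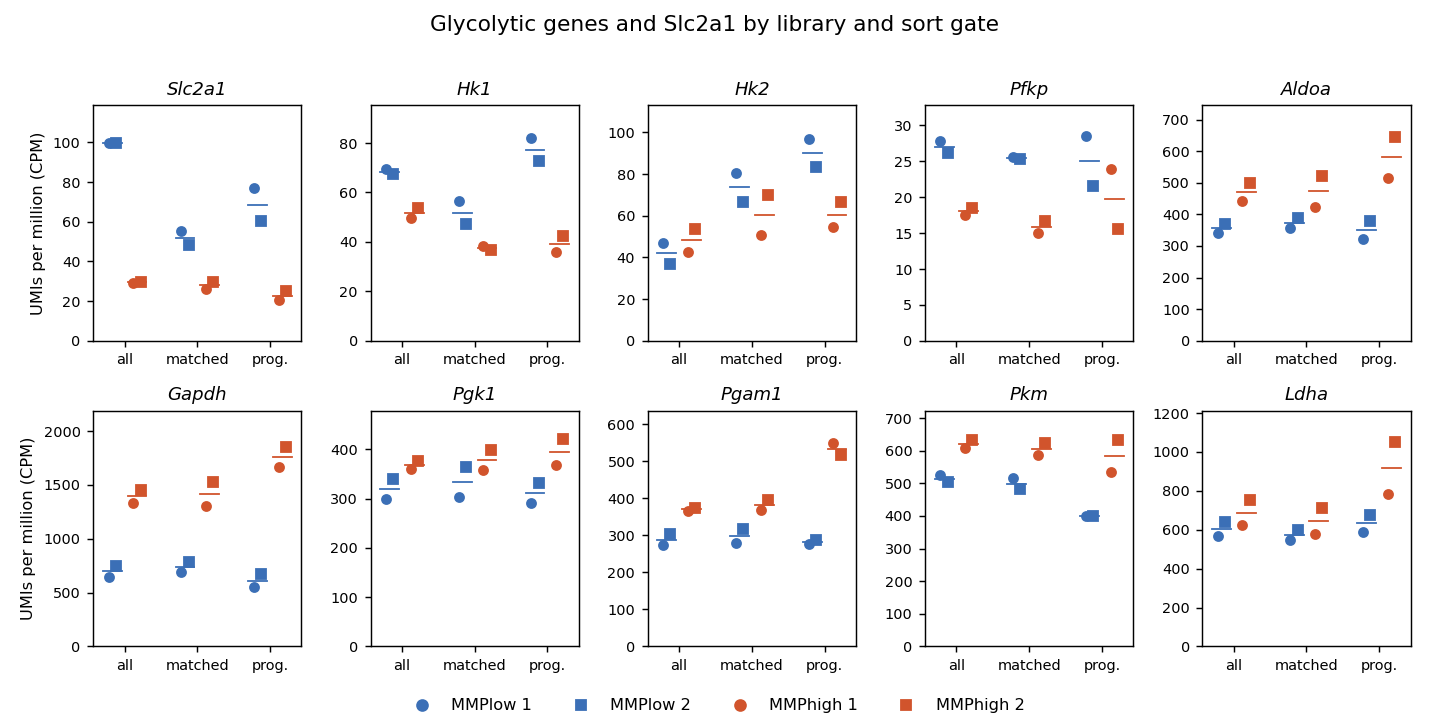
Level of each gene (y axis, CPM, each panel from 0) in each library, for all retained cells (all), sums with the same number of cells of a class from every library (matched) and haematopoietic progenitor-like cells (prog.). Circles are replicate 1 and squares replicate 2, blue MMPlow and orange MMPhigh, and lines are gate means; Slc2a1 lies lower and Gapdh higher in both MMPhigh libraries in all 3 sets.

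In the class-matched sums, of which macrophage-like cells are the most numerous class, the same 7 members passed, against 21.2% of 16964 genes (9.6% higher and 11.6% lower), and each kept its direction. Gapdh (log2 1.00, SE 0.12), Pgam1 (0.41, SE 0.10), Aldoa (0.41, SE 0.12) and Pkm (0.33, SE 0.10) rose. Pfkp (-0.62, SE 0.12), Hk1 (-0.41, SE 0.11) and Slc2a1 fell. The log2 values of Hk2, Pgk1 and Ldha were -0.22, 0.24 and 0.23 and none of them passed. At most 3 members passed under 4 of the alternatives, given here with the share of all genes: 3 members passed with cells of at least 5000 UMIs and 2000 genes (14.2% of all genes), 3 without MMPlow 1 (7.63%), 3 when the pathway genes were left out of the clustering (17.1%) and 2 at Leiden resolution 2 (13.2%). The last 2 settings also redrew the classes: without the pathway genes erythroid-like cells of MMPlow 1 went from 74 to 1244, and the progenitor-like and epithelial or mesonephric-like cells left the sums. The genes left out of that clustering were those of all lists followed here, immediate early and stress genes included. None of the members had been among the variable genes to begin with. Slc2a1 passed as lower and Gapdh as higher under each of these 4 alternatives. With scaling by library totals, the genes that passed split into 1236 higher and 2287 lower in place of 1629 and 1961.

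Haematopoietic progenitor-like cells, named from a marker list that includes Runx1, Myb, Kit and Flt3, had the highest log2 fold changes of Gapdh and Pgam1 among the 9 classes fitted. They numbered 799 and 950 in the MMPlow libraries and 44 and 58 in the MMPhigh libraries. The class pools 3 clusters that the gates filled differently. A cluster led by Mndal and Flt3 held 425 and 528 MMPlow cells and 42 and 49 MMPhigh cells. Of the marker list, Flt3, Angpt1 and Hlf were among its leading genes, along with Il7r of the lymphoid list. Myb was among those of an unnamed cluster outside the class. A cluster led by Ifitm1, with the mast cell genes Cpa3 and Hdc among its leading genes, held 293 and 369 MMPlow cells and 2 and 9 MMPhigh cells. A cluster with Ogn and Aspn among its leading genes held 81 and 53 MMPlow cells and 0 and 0 MMPhigh cells. Here 8 members passed, 6 higher (Gapdh, Pgam1, Aldoa, Pkm, Ldha and Pgk1) and 2 lower (Slc2a1 and Hk1). Of 11410 genes tested in these cells 31.5% passed, 16.4% higher and 15.1% lower. The 10 genes together took 0.271% and 0.299% of the UMIs in MMPlow and 0.455% and 0.527% in MMPhigh.

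Gapdh had 548 and 671 CPM in the MMPlow progenitor-like cells and 1666 and 1855 CPM in the MMPhigh ones. The gates were widely apart, with a log2 fold change of 1.83 (SE 0.17, edgeR adjusted p = 4.48e-06). Pgam1 stood at 276 and 289 CPM against 550.1 and 516 CPM (log2 1.21, SE 0.16, edgeR adjusted p = 6.43e-05). Aldoa stood at 323 and 379 CPM against 516 and 645 CPM (log2 1.03, SE 0.17, edgeR adjusted p = 3.92e-04). None of these 3 genes overlapped between the gates.

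Of the genes that close the pathway, Pkm had 400.0 and 401 CPM in MMPlow and 535 and 633 CPM in MMPhigh (log2 0.85, SE 0.16, edgeR adjusted p = 0.001). Ldha had 587 and 678 CPM against 784 and 1049.6 CPM (log2 0.84, SE 0.17, edgeR adjusted p = 0.00201). Pgk1 had 292 and 332 CPM against 369 and 421 CPM (log2 0.64, SE 0.16, edgeR adjusted p = 0.00651). In each, both MMPhigh libraries were above both MMPlow libraries.

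Slc2a1 moved the other way in the progenitor-like cells, with 76.8 and 60.2 CPM in MMPlow and 20.5 and 25.2 CPM in MMPhigh. Its log2 fold change was -1.22 (SE 0.24, edgeR adjusted p = 0.00143), which rests on 12 and 42 UMIs in the MMPhigh libraries. Hk1 fell from 81.9 and 72.7 CPM to 35.9 and 42.5 CPM (log2 -0.63, SE 0.20, edgeR adjusted p = 0.027), but its log2 fold change was 0.14 at Leiden resolution 2, and it did not pass there or by DESeq2. Hk2 had 96.7 and 83.3 CPM against 54.7 and 66.5 CPM and did not pass (log2 -0.23, SE 0.19, edgeR adjusted p = 0.394). Pfkp, with 14 and 26 UMIs in MMPhigh, overlapped between the gates (log2 -0.14, SE 0.32, edgeR adjusted p = 0.771).

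Several values moved with these differences, and their part in them was not tested. With scaling by library totals in place of TMM, the median log2 of all genes in the progenitor-like cells moved from -0.03 to -0.33, and the genes that passed split into 964 higher and 3103 lower in place of 1867 and 1722. The members kept their signs; Pgk1 (0.34) then no longer passed and Hk2 (-0.53) did. Transcript abundance of the 12 endothelial markers was 1458 and 1138 CPM in the MMPlow progenitor-like cells and 275 and 366 CPM in the MMPhigh ones. The 84 cytosolic ribosomal protein genes summed to 149270 and 156362 CPM in MMPlow and 218926 and 223506 CPM in MMPhigh, and Malat1, a nuclear RNA, went from 8072 and 7031 CPM to 2918 and 2656 CPM. The median mitochondrially encoded share of a progenitor-like cell was 6.54% and 6.78% in MMPlow and 3.55% and 3.63% in MMPhigh. Immediate early and stress genes summed to 213 and 211 CPM in MMPlow and 277 and 578 CPM in MMPhigh. Genes spanning under 10 kb, such as Gapdh, Aldoa and Pgam1, had a median log2 of 0.49 in these cells over all 2568 tested. Genes over 50 kb, such as Hk1 and Pfkp, had a median of -0.39 over 3450.

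Other choices of cells gave lower counts. Among progenitor-like cells of at least 5000 UMIs and 2000 genes (114, 255, 25 and 51 in MMPlow 1, MMPlow 2, MMPhigh 1 and MMPhigh 2), 4 members passed, against 8.65% of 9728 genes. These were Gapdh (log2 1.13), Pgam1 (0.55) and Pkm (0.53), which were higher, and Slc2a1 (-1.32), which was lower. With each cell thinned to 2000 UMIs, 5 passed, against 13.4% of 9187 genes. Within the progenitor-like cluster led by Mndal and Flt3 alone (425, 528, 42 and 49 cells), a subset added once the clusters were known, 7 of the 10 passed against 23.9% of 10262 genes (13.5% higher and 10.4% lower). Gapdh had a log2 fold change of 1.67 there and Slc2a1 of -1.08, and Hk1 (-0.38) did not pass.

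**Figure D2:**
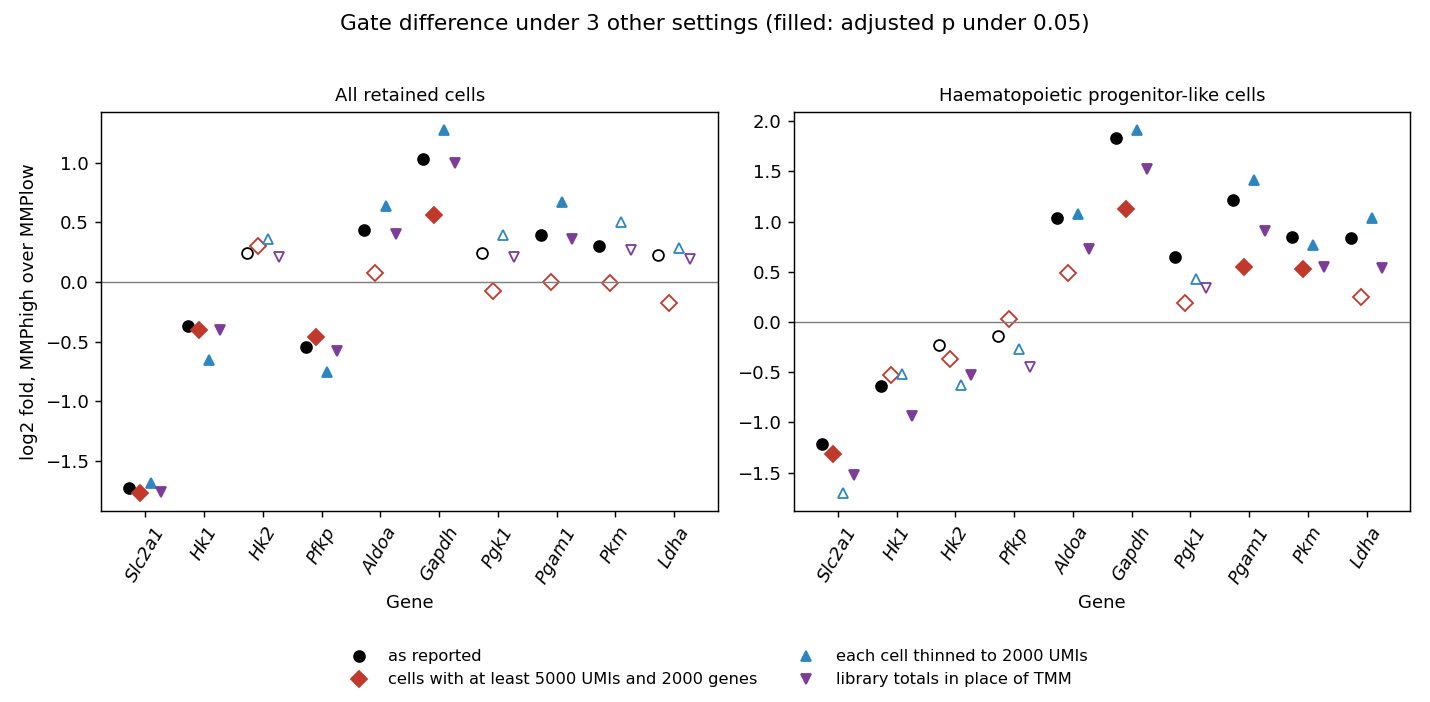
Log2 fold change of MMPhigh over MMPlow (y axis) of each gene (x axis) as reported and under 3 other settings, in all retained cells (left) and progenitor-like cells (right); filled symbols passed the test. Slc2a1 stays between -1.77 and -1.68 in all cells, whereas Aldoa, Pgam1 and Pkm come to 0.07 or less with cells of at least 5000 UMIs and 2000 genes.

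In macrophage-like cells 9 members passed, 6 higher and 3 lower, against 35.6% of 13678 genes, 18% higher and 17.6% lower. Gapdh went from 653 and 785 CPM to 1566 and 1849.8 CPM (log2 1.49, SE 0.16, edgeR adjusted p = 1.67e-04). Aldoa (log2 0.87), Pgam1 (0.76), Pgk1 (0.69), Ldha (0.59) and Pkm (0.58) also rose, and Hk1 (-0.67), Pfkp (-0.63) and Slc2a1 (-0.42) fell. With cells of at least 5000 UMIs and 2000 genes, the log2 fold change of Ldha was -0.037 and it did not pass. The median mitochondrially encoded share of these cells was 5.85% and 6.41% in MMPlow and 4.17% and 4.58% in MMPhigh. The median log2 was 0.21 for genes under 10 kb and -0.13 for genes over 50 kb. Their part in the result was not tested. The clusters that make up this class differed between the gates. A cluster led by Gm2245 and F13a1 held 1222 and 1232 of the MMPlow cells and 15 and 9 of the MMPhigh cells. A cluster led by Mrc1, a mannose receptor gene, and C1qb, a complement gene, held 303 and 482 MMPlow cells and 697 and 558 MMPhigh cells. A cluster led by Ctss and Mpeg1 held 22 and 51 MMPlow cells and 164 and 329 MMPhigh cells. The MMPhigh libraries also differed from each other. At Leiden resolution 2 a macrophage-like cluster led by Aif1 and Tyrobp held 776 MMPhigh 1 cells. It held 37, 19 and 27 cells of MMPlow 1, MMPlow 2 and MMPhigh 2. The median macrophage-like cell held 4631.5 UMIs in MMPhigh 1 and 23616 in MMPhigh 2. Within the Mrc1 and C1qb cluster alone, chosen after seeing the data, only Gapdh passed (log2 0.77, SE 0.13, edgeR adjusted p = 0.00568), against 6.96% of 12123 genes (3.03% higher and 3.93% lower). There Slc2a1 had a log2 fold change of -0.07 and Ldha of 0.03, and the median was -0.0015 for genes under 10 kb and 0.06 for genes over 50 kb. With scaling by library totals, the genes that passed in the whole class split into 1248 higher and 4497 lower in place of 2462 and 2410, and Ldha (0.35) no longer passed.

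In the other 7 classes 0 to 5 members passed. Megakaryocyte-like cells had 3 members that passed against 12.7% of genes (5.45% higher and 7.26% lower), with Gapdh (log2 1.20) and Pgam1 (0.68) higher and Slc2a1 (-0.74) lower. Of the 194 such cells of MMPhigh 2, 94 lay in a cluster led by Ppbp that also had the macrophage genes Lyve1 and Mrc1 among its leading genes and held 0, 1 and 2 cells of MMPlow 1, MMPlow 2 and MMPhigh 1. The median mitochondrially encoded share of megakaryocyte-like cells was 6.24% and 5.96% in MMPlow and 2.82% and 3.55% in MMPhigh, and the median log2 was 0.19 for genes under 10 kb and -0.10 for genes over 50 kb. Their part in the result was not tested. Erythroid-like cells had 2 against 9.71% of genes (3.06% higher and 6.65% lower), Gapdh higher (0.72) and Slc2a1 lower (-0.94). In contrast to the blood classes above, their median mitochondrially encoded share was lower in MMPlow (1.58% and 1.68%) than in MMPhigh (2.49% and 3.09%). Mesenchymal-like cells had 4 against 19.9% of genes (7.59% higher and 12.3% lower), Gapdh higher (0.75) and Slc2a1 (-1.01), Hk1 (-0.76) and Pfkp (-0.65) lower. Neural or neural crest-like cells had 3 against 10.5% of genes (4.34% higher and 6.16% lower), Gapdh higher (0.45) and Pfkp (-1.12) and Slc2a1 (-1.01) lower. The median mitochondrially encoded share was higher in MMPhigh in these cells (2.06% and 2.05% against 3.04% and 3.07%) and in muscle progenitor-like cells (2.55% and 2.84% against 3.64% and 3.55%). Its part in these results was not tested.

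In the megakaryocyte-like and erythroid-like cells, scaling by library totals split the genes that passed into 502 higher and 1135 lower, and 545 higher and 442 lower, in place of 661 and 881, and 258 and 561. The members named here kept their direction and passed in both.

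Epithelial or mesonephric-like cells, whose leading genes Afp, Rbp4 and Alb are made by liver and yolk sac epithelium, had Slc2a1 alone (-1.26) past the test, against 6.42% of genes (2.63% higher and 3.78% lower). In muscle progenitor-like cells 0 of the 9 members tested passed by edgeR, where 1.25% of all genes did, 0.122% higher and 1.13% lower. At an unadjusted p under 0.05 there were 4 by edgeR and 2 by DESeq2, and 0 passed by DESeq2. There Slc2a1 went from 44.5 and 43.8 CPM to 17.04 and 24.3 CPM (log2 -0.95, SE 0.27, edgeR adjusted p = 0.167). Gapdh in the same cells went from 1028 and 1305 CPM to 1840.3 and 1879 CPM (log2 0.73, SE 0.17, edgeR adjusted p = 0.0729). In neither gene did the gates overlap. Pfkp was below the filter on low counts in the muscle progenitor-like and the epithelial or mesonephric-like cells.

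In germ cell-like cells, the precursors of gametes, 5 members passed against 7.18% of genes (4.3% higher and 2.88% lower): Gapdh (log2 1.59), Pkm (1.23) and Aldoa (1.07) were higher and Slc2a1 (-1.46) and Ldha (-0.89) lower. Ldha stood at 343 and 489 CPM in MMPlow and 215 and 193 CPM in MMPhigh (SE 0.24, edgeR adjusted p = 0.018), and among the 9 classes these were the only cells in which Ldha passed as lower. These values rest on 29 and 30 MMPlow cells with 37 and 73 Ldha UMIs, against 76 and 48 MMPhigh cells with 157 and 479. Slc2a1 had 10 and 15 UMIs in the MMPlow germ cell-like cells and 21 and 82 in the MMPhigh ones. The median mitochondrially encoded share of these cells was 8.09% and 8.76% in MMPlow and 2.97% and 3.91% in MMPhigh, and the median log2 was 0.46 for genes under 10 kb and -0.22 for genes over 50 kb. Their part in the result was not tested. Without MMPlow 2 the log2 fold change of Ldha was -0.51 and with cells thinned to 2000 UMIs it was -0.19, and in neither did it pass. By DESeq2 its adjusted p was 0.0802. With cells under 10% mitochondrially encoded UMIs, Ldha passed as lower in 0 of 8 classes. Without the filter on low counts it did so in 0 of 9. Germ cell-like cells were fitted in both settings. With scaling by library totals, the genes that passed in these cells split into 180 higher and 294 lower in place of 297 and 199. Under other settings Ldha passed as lower in more than these cells. It did so in 2 of 8 classes with the highest 6% of doublet scores removed. With clustering without the pathway genes it did so in 2 of 7. Without MMPhigh 2 the log2 fold change of Ldha was below 0 in 5 of 9 classes, against 3 as reported. Its log2 fold change in neural or neural crest-like cells was -0.33 (SE 0.12) and did not pass as reported.

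Across the 9 classes, 88 class and member pairs were tested and 35 passed, 20 higher and 15 lower. Over all genes 16.4% of 101022 such pairs passed, 7.49% higher and 8.88% lower. Slc2a1 passed as lower in 8 of 9 classes by edgeR but in 3 by DESeq2, in 3 without MMPlow 1, in 3 without MMPlow 2 and in 2 of 7 with cells of at least 5000 UMIs and 2000 genes. Its log2 fold change was below 0 in every class fitted under each of these alternatives. Gapdh passed as higher in 7 of 9 classes by edgeR and in 7 by DESeq2, and in 4 without MMPlow 1 and 4 of 7 with the deeper cells. Hk1 passed as lower in 3 (in 0 without MMPlow 1) and Pfkp in 3 classes, Aldoa, Pgam1 and Pkm each passed as higher in 3, and Hk2 passed in 0 by edgeR (0 at an unadjusted p under 0.05) and 0 by DESeq2. Without MMPhigh 1 Hk2 passed as higher in 1 class, and without MMPhigh 2 as lower in 2. Without MMPlow 1 the member pairs that passed numbered 19, against 5.58% of all pairs. With cells of at least 5000 UMIs and 2000 genes they numbered 10 of the 69 tested, against 10.2% of all pairs. With those cells Aldoa, Pgk1 and Ldha passed in 0 of 7 classes and Pfkp in 0 of 6. Pgam1 and Pkm each passed as higher in 1 of 7, and Hk1 as lower in 2 of 7. With clustering without the pathway genes, Aldoa passed as higher in 4 of 7 classes and as lower in 1. Without MMPhigh 2 the log2 fold change of Pgam1 was below 0 in 2 of 9 classes, against 1 as reported. The endothelial-like cells had Slc2a1 at 136 and 147 CPM in MMPlow and at 101 and 316 CPM, from 25 and 115 UMIs, in MMPhigh. Their MMPhigh counts were too low for the limit of 20 cells, and a limit of 10 was added later. With it 0 of the 10 members passed by edgeR, and Gapdh and Pgk1 were the 2 at an unadjusted p under 0.05. Slc2a1 had a log2 fold change above 0 there (0.64, SE 0.43). Of all genes 1.83% passed there, 0.77% higher and 1.06% lower.

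**Figure D3:**
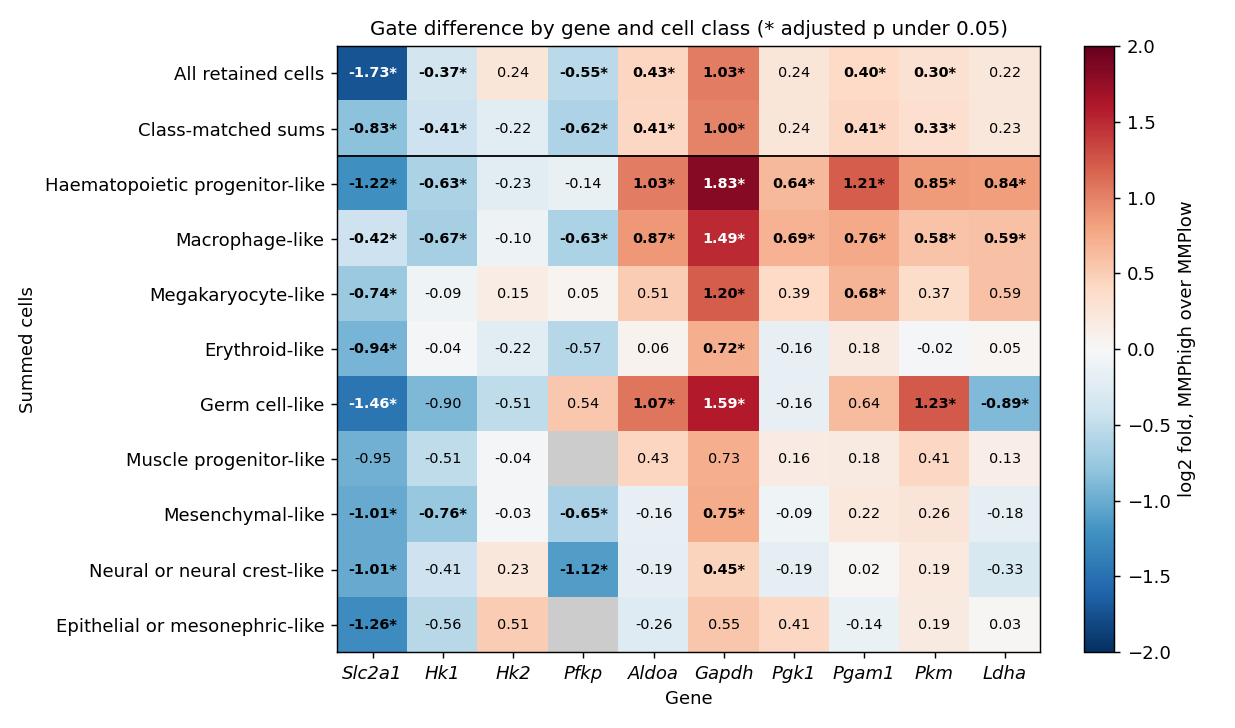
Log2 fold change of MMPhigh over MMPlow for each gene (columns) in the summed sets and in each of 9 cell classes (rows), with asterisks where the edgeR adjusted p is under 0.05; grey cells were not tested. Slc2a1 is negative and Gapdh positive in every row, whereas Ldha runs from 0.84 in progenitor-like to -0.89 in germ cell-like cells.

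Whether a member's gate difference varied between classes was tested in a joint fit with class by gate terms and a term for each library, since the class sums of a library share their source. Residual errors were treated as independent between classes. Of the 10 members 9 passed, against 35.1% of 15957 genes. The adjusted p (edgeR) was 3.40e-08 for Gapdh, whose class values ran from 0.45 in neural or neural crest-like to 1.83 in progenitor-like cells. It was 4.90e-07 for Aldoa, from -0.26 in epithelial or mesonephric-like to 1.07 in germ cell-like cells. Hk2 did not pass (edgeR adjusted p = 0.503). The counts furthest below this were, with the share of all genes, as follows: 2 members passed without MMPlow 1 (Aldoa and Gapdh; 6.76% of all genes), 4 without MMPlow 2 (12.1%) and 4 with cells of at least 5000 UMIs and 2000 genes (20.3%).

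The lower Slc2a1 level in MMPhigh went with fewer endothelial transcripts in every class fitted. Outside the endothelial-like cells, the endothelial markers summed to 377 to 1713 CPM over the MMPlow class sums and to 14.2 to 366 CPM over the MMPhigh ones. In neural or neural crest-like cells these markers stood at 14.4% and 11.03% of the endothelial-like level in MMPlow 1 and MMPlow 2. The source of these transcripts there was not tested. In the same cells Slc2a1 stood at 29.4% and 30.3% of its endothelial-like level. In the MMPhigh libraries the markers of these cells were at 0.565% and 0.261%, and Slc2a1 at 22.6% and 6.02%. These shares are of endothelial-like sums of only 17 and 16 cells, whose Slc2a1 levels were 101 and 316 CPM. The Slc2a1 level in these cells was 40.01 and 44.6 CPM in MMPlow and 22.8 and 19.0 CPM in MMPhigh. How much of the difference in Slc2a1 goes with these transcripts was not tested.

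The classes also differed in level, which is described without a test because the classes were built from the same cells. Values are means of 2 libraries. In MMPlow, Slc2a1 was highest in endothelial-like cells (142 CPM) and epithelial or mesonephric-like cells (141 CPM), whose libraries overlapped. Germ cell-like cells followed at 96.5 CPM, from 10 and 15 UMIs, below both without overlap. Their range overlapped that of granulocyte or mast-like cells (76.3 CPM). Muscle progenitor-like, mesenchymal-like and neural or neural crest-like cells came last at 44.2, 42.6 and 42.3 CPM. Among the classes with at least 20 cells in each library, the order in MMPhigh began with epithelial or mesonephric-like (55.9 CPM) and megakaryocyte-like cells (44.2 CPM), which overlapped.

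The hexokinases differed between the blood lineages. Hk1 was highest in megakaryocyte-like (147 CPM) and erythroid-like cells (142 CPM) of MMPlow, which overlapped, and lowest in muscle progenitor-like cells (31.5 CPM). In MMPhigh the same 2 classes led with 149.5 CPM in erythroid-like and 130.5 CPM in megakaryocyte-like cells. Hk2 was highest in macrophage-like cells of both gates, at 139.8 and 109 CPM, and lowest in neural or neural crest-like cells, at 13.4 and 14.97 CPM. Of the UMIs of both hexokinases, Hk2 held 77.6% and 79.7% in MMPlow macrophage-like cells and 82.4% and 86.0% in MMPhigh ones. It held 22.6% and 22.5% in MMPlow erythroid-like cells and 14.1% and 23.1% in MMPhigh ones.

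Pfkp was highest in germ cell-like cells, at 71.3 CPM in MMPlow, from 6 and 13 UMIs and overlapping granulocyte or mast-like cells (53.8 CPM), and 93.7 CPM in MMPhigh, and lowest in muscle progenitor-like cells of MMPlow (8.48 CPM) and epithelial or mesonephric-like cells of MMPhigh (1.58 CPM, from 0 and 2 UMIs). Ldha was highest in erythroid-like cells of both gates (1171 and 1319 CPM), where Aldoa was also highest (665 and 758 CPM). In MMPhigh these levels overlapped those of megakaryocyte-like cells for Ldha and of macrophage-like cells for Aldoa. Neural or neural crest-like cells were lowest for Aldoa, Pgk1 and Pgam1 in both gates. Gapdh was highest in muscle progenitor-like cells of both gates (1167 and 1859.6 CPM), overlapping erythroid-like cells in each. In MMPlow the highest class stood 1.79-fold above the lowest for Pgk1, 1.74-fold for Pgam1 and 1.56-fold for Pkm, against 10.5-fold for Hk2 and 8.41-fold for Pfkp.

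**Figure D4:**
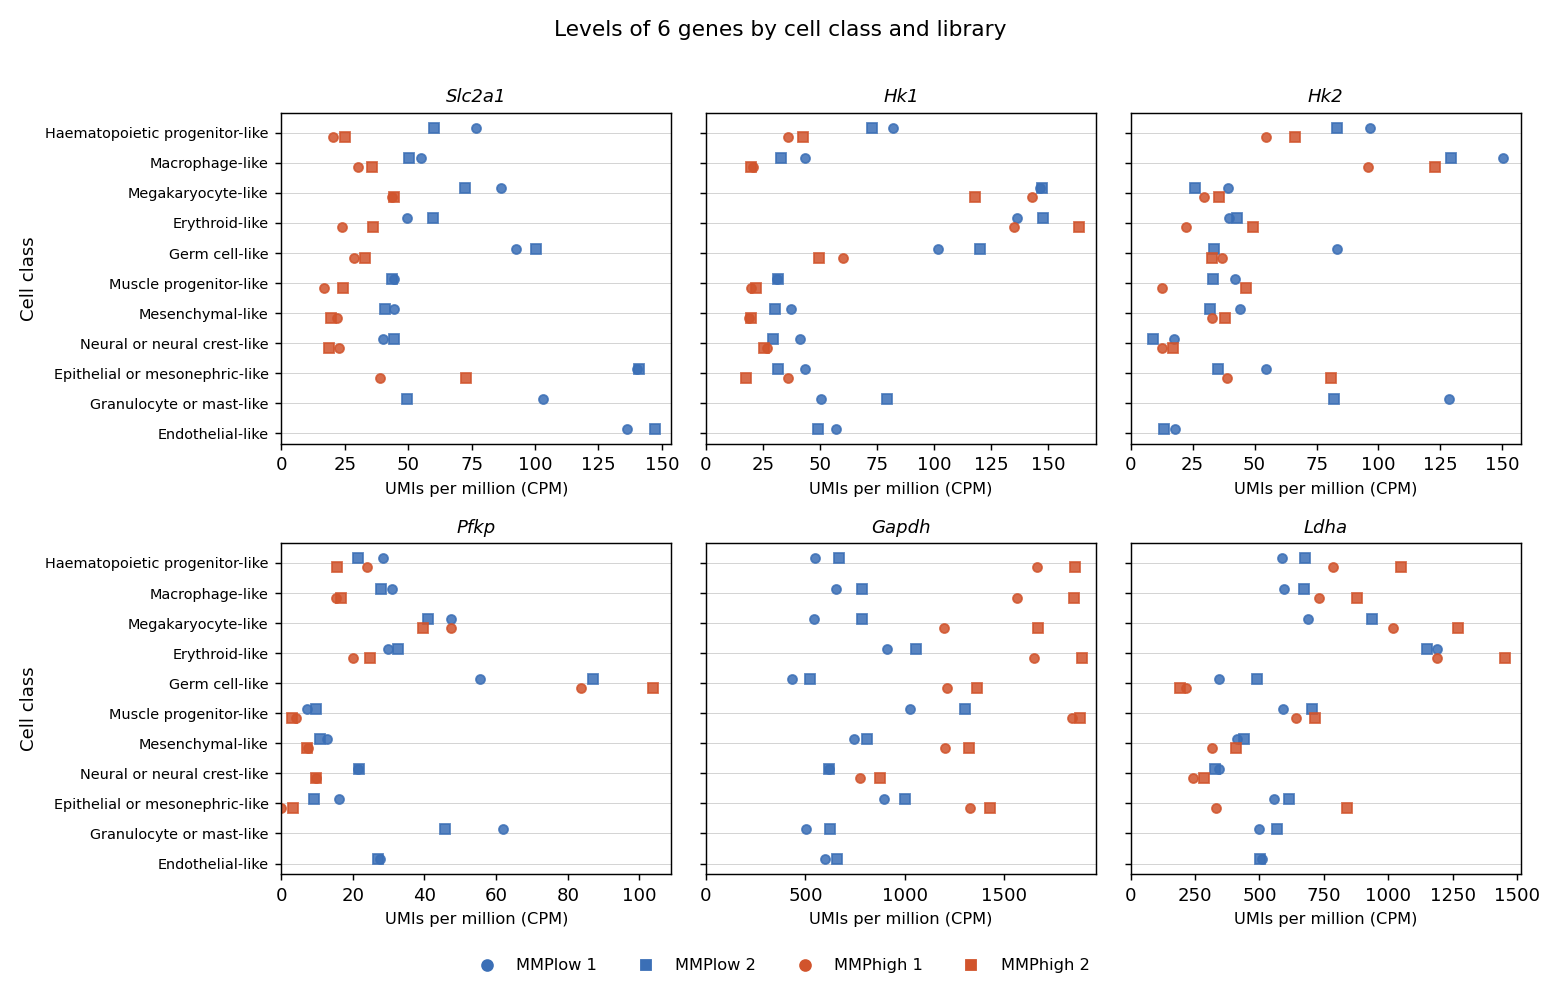
Level of 6 genes (x axis, CPM) in each cell class (y axis) and library with at least 20 cells of the class; circles are replicate 1 and squares replicate 2, blue MMPlow and orange MMPhigh. Hk2 is highest in macrophage-like cells and Hk1 in erythroid-like and megakaryocyte-like cells of both gates.

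Isozyme partners outside the family gave further contrasts, again as descriptions. Ldhb, the lactate dehydrogenase subunit of oxidative tissues, held 22.9% and 14.1% of the Ldha and Ldhb UMIs in MMPlow germ cell-like cells and 55.6% and 53.1% in MMPhigh ones. In neural or neural crest-like cells it held 30.8% and 34.2% in MMPlow and 50.3% and 46.0% in MMPhigh. In progenitor-like cells it held 2.17% and 2.60% in MMPlow and 1.71% and 1.96% in MMPhigh, and Ldha held the rest. Slc2a3, which encodes the transporter GLUT3, held 55.0% and 59.9% of the Slc2a1 and Slc2a3 UMIs in MMPlow progenitor-like cells and 72.1% and 72.2% in MMPhigh ones. Its share went the other way in epithelial or mesonephric-like cells, with 71.9% and 68.3% in MMPlow and 60% and 31.3% in MMPhigh. In mesenchymal-like cells it held 29.1% and 29.8% in MMPlow and 23.6% and 29.5% in MMPhigh. In MMPlow endothelial-like cells it held 11.504% and 9.22%.

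The rest of the pathway was followed in 7 further lists. Of 20 other glycolytic enzymes, 18 were tested over all retained cells, of which 10 were higher, against 27.2% of all genes, and the others did not pass. Their median log2 was 0.66 against 0.01 over all genes. In the class-matched sums 4 of 18 were higher, against 9.6% of all genes, with a median of 0.36. They included Ldhb (log2 0.83) and Eno3, the muscle enolase (0.77), and Hkdc1, a hexokinase-related gene with no UMI in MMPlow and 63 UMIs in MMPhigh, at least 4.58-fold higher with 3 UMIs over the gate as the floor. Hkdc1 could meet the filter on low counts only through MMPhigh, so its place among the 4 was set in part by that filter. In progenitor-like cells 5 of 11 tested were higher, against 16.4% of all genes, with a median of 0.53 against -0.03. All genes under 10 kb had a median of 0.49 in these cells. The part of gene length in the list medians was not tested. List values, here and below, are given only for the main settings. Tpi1, which interconverts the trioses, went from 262 and 289.7 CPM to 473 and 509 CPM (log2 1.13, SE 0.16), and Eno1, the main enolase, had a log2 of 1.22. Eno1b (log2 1.89) is a near-identical copy of Eno1, so the counts of both are uncertain.

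The pentose phosphate branch, which draws glucose phosphate off into NADPH and ribose, was higher in the progenitor-like cells in 4 of 7 genes, against 16.4% of all genes there, with a median log2 of 0.66 against -0.03 over all genes. Pgls (log2 1.07), Taldo1 (0.89) and Pgd (0.84) led. Of 16 switches of glycolytic flux, 11 were tested there, and 3 passed, all higher, against the same 16.4%. These were Pdp2 (1.45), a phosphatase that activates pyruvate dehydrogenase, and Mpc1 (0.88) and Mpc2 (0.78), which carry pyruvate into mitochondria. Of 10 other glucose and lactate transporters, 5 were tested there and 0 passed by edgeR, with 2 at an unadjusted p under 0.05, and 0 passed by DESeq2.

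Of 17 other genes that respond to hypoxia, 14 were tested in progenitor-like cells: Higd1a was higher (log2 0.65) and Ero1l (-1.14), Kdm3a (-0.84) and P4ha1 (-0.73) were lower, with a list median of -0.23. Over all genes there 16.4% were higher and 15.1% lower. Over all retained cells 1 of 17 was higher, Mxi1 (0.98), and 6 were lower, led by Adm (-2.63), Ndrg1 (-1.86) and Egln3 (-1.24), against 27.2% and 26.5% of all genes. In the class-matched sums 2 of 17 were higher, Mxi1 (0.35) and Egln1 (0.34), and 3 were lower, against 9.6% and 11.6% of all genes. Among 12 transcription factors of the pathway, Myc was higher in the progenitor-like cells (36.3 and 35.8 CPM against 51.3 and 67.7 CPM, log2 1.08). Epas1, an oxygen-regulated factor of endothelium, had 179 UMIs in MMPlow and 0 in MMPhigh, at least 18.3-fold lower with the same floor. Immediate early and stress genes were higher in 7 of 11 tested there, against 16.4% of all genes, led by Fosb, with 1 UMI in MMPlow and 56 in MMPhigh. Fosb could meet the filter on low counts only through MMPhigh, and Epas1 only through MMPlow. Their direction was thus set in part by that filter, and the 7 of 11 count includes Fosb.

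Across 40 sums of class and library from 11 classes, the genes with patterns most like the mean of the 10 were Rpl22l1 (Pearson r = 0.84), Cln6 (0.83), Rpl36al (0.81), Snx5 (0.79), Rpsa (0.79) and Rpl32 (0.79). The sums share libraries and differ in depth, so these are descriptions. Among single members, Ldha was most like Tpi1 (r = 0.93), Gapdh was most like Eno1 (0.87) and Pgk1 most like Tpi1 (0.79). Slc2a1 was most like Flt4, a receptor gene of endothelium (0.83), Hk1 was most like Ubxn2a (0.90), Hk2 most like Trim14 (0.83), Pfkp most like Zfp979 (0.89), Aldoa most like Rpsa (0.88), Pgam1 most like Arf1 (0.80) and Pkm most like Alkbh7 (0.74). Within the family, Pgk1 and Ldha (r = 0.83) and Aldoa and Pgk1 (0.78) went together, whereas Gapdh and Slc2a1 ran opposite (-0.63).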

How the data were processed

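Single-cell libraries (10x Genomics) of 4 sorted samples were analysed. The authors deposited raw UMI counts per gene and barcode, with no normalization. Per the file headers they came from Cell Ranger 7.0.1, whereas the submitters' processing notes name Cell Ranger 2.1.1 and mm10; which applies is not settled. Barcodes with at least 2000 UMIs, 1000 genes and under 25% mitochondrially encoded UMIs (13 genes) were kept. Doublets were called with Scrublet (scanpy 1.11.5), which marked 0 in MMPhigh 1 and is taken not to have worked there. Cells were clustered on 2000 variable genes, none a member, with 30 components, 15 neighbours and Leiden resolution 1 (leidenalg 0.10.2), and clusters were named from marker lists by thresholds set after the clusters had been seen. Counts were summed per library and class (at least 20 cells in each library) and tested with edgeR 4.0.16 (R 4.3.3; TMM, filterByExpr, robust quasi-likelihood); DESeq2 1.42.0 was an alternative. The scripts were tested on simulated data.

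The members and lists were chosen with earlier results of these data known. All 10 members are named throughout, and from each wider list up to 3 genes a direction with the largest fold among those that passed. A second Ensembl entry with the symbol Aldoa, holding 22 to 58 UMIs per library, was left out. Aldoa, Gapdh, Pgk1, Pgam1, Pkm and Ldha have near-identical copies in the genome, and how shared reads were counted is not given in the sources used here.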

Additional observations from a re-analysis of the deposited data

Results flagged for a closer look

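For 9 members the gate difference varied between the 9 cell classes by the joint test (edgeR quasi-likelihood F-test of all class by gate terms, adjusted over all genes), which is what singled them out. The adjusted p was 3.40e-08 for Gapdh (class log2 fold changes from 0.45 to 1.83), 4.90e-07 for Aldoa (-0.26 to 1.07) and 5.23e-05 for Pgam1 (-0.14 to 1.21). It was 1.10e-04 for Pkm (-0.02 to 1.23), 9.59e-04 for Pfkp (-1.12 to 0.54) and 0.00928 for Hk1 (-0.90 to -0.04). For Ldha it was 0.0162 (-0.89 to 0.84), for Pgk1 0.0303 (-0.19 to 0.69) and for Slc2a1 0.0328 (-1.46 to -0.42). Aldoa, Pgam1, Pkm, Pfkp, Ldha and Pgk1 had class values on both sides of 0. Of these, only Ldha passed within classes in both directions, as higher in 2 and as lower in 1. Aldoa, Pgam1, Pkm and Pgk1 passed only as higher and Pfkp only as lower. Slc2a1 and Hk1 were below 0 and Gapdh above 0 in all 9 classes. With the test passed by 35.1% of all genes, such variation was common.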

How the results depend on the processing

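With cells of at least 5000 UMIs and 2000 genes, the members that passed numbered 4 over all cells (7 as reported), 3 in class-matched sums (7), 10 class and member pairs (35), 4 in progenitor-like cells (8) and 4 in the joint test (9). In these cells the log2 fold changes turned to -0.073 for Pgk1, -0.0010 for Pgam1, -0.0076 for Pkm and -0.17 for Ldha over all cells, to -0.084 for Pgk1 and -0.13 for Ldha in class-matched sums, to -0.037 for Ldha in macrophage-like cells and to 0.029 for Pfkp in progenitor-like cells. Leiden resolution 2 gave 2 members in class-matched sums and turned Hk1 (0.14) and Pfkp (0.38) in progenitor-like cells; clustering without the pathway genes gave 3 in class-matched sums; thinning gave 5 in progenitor-like cells. Pfkp there was also 0.14 in the Mndal and Flt3 cluster and ran from -0.33 to 0.25 as each library was left out, at 0.25 without MMPhigh 2 and 0.044 without MMPlow 1. Leaving out each library in turn gave 4 to 9 members over all cells, 3 to 8 in class-matched sums, 19 to 40 pairs, 6 to 8 in progenitor-like cells and 2 to 10 in the joint test, the lowest each time without MMPlow 1; the shares of all genes ran from 36% to 51.2%, 7.63% to 24.3%, 5.58% to 19.4%, 14.2% to 32.4% and 6.76% to 41.5%. The replicate block gave 6, 6, 33 and 8, against 53.4%, 26.6%, 16.7% and 30.5% of all genes or pairs; deviations of same-numbered libraries correlated at r = 0.11 over 20416 genes, but with 2 pairs the numbers are not shown to pair the samples. A left-out library leaves a gate with 1 library, assumed to vary like the others. Clustering without the pathway genes left 4 and 25 progenitor-like cells in MMPhigh 1 and MMPhigh 2, under the limit of 20 cells in each library, so they were not fitted. These cells lay in a cluster led by Ifitm1 and Cpa3, and a cluster led by Mndal and Ccr2 was named macrophage-like there. Some classes also fell under 20 cells under the stricter filters. The causes were not tested. The MMPhigh progenitor-like values of Slc2a1, Hk1 and Pfkp are limited by the 44 and 58 cells, with 12 to 71 UMIs a library.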
